A study of Mus musculus with 4 samples.

Results

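The genes described here are 10 repressors of retroelements, measured in mouse embryonic stem cells (ESCs), that also restrain the 2-cell-like (2C-like) state: *Trim28*, *Setdb1*, *Atf7ip*, *Ehmt2*, *Ehmt1*, *Kdm1a*, *Morc3*, *Chaf1a*, *Chaf1b* and *Zfp809*. They were chosen by name, as genes of H3K9 methylation and chromatin assembly, from the 50559 genes of the deposited count table, and all 10 were present in it and passed the filter on low counts. The study asked whether YTHDF2, a cytoplasmic protein that binds m6A-modified RNA and speeds its decay, holds back the 2C-like state, and whether m6A binding is needed for this. Poly(A)+ RNA of E14 ESCs was sequenced in 4 libraries, 1 for each group. All the cells carried a lentiviral hairpin and a second construct. The group shScram+EV had a scrambled hairpin and an empty vector. The group shYthdf2+EV had a hairpin against *Ythdf2* and the empty vector, and is called the knockdown below. The groups shYthdf2+DF2WT and shYthdf2+DF2Mut had the *Ythdf2* hairpin together with wild-type YTHDF2 or with YTHDF2 mutated at its m6A-binding site. Per the methods of the study, the hairpin lines were stable lines selected with puromycin and grown on gelatin with LIF and serum replacement, and which of its *Ythdf2* hairpins was used in these groups is not given in the sources used here. The study's methods speak of replicate samples in each group, whereas only 1 library carries each group's label here, and whether that library holds 1 culture or several is not given in the sources used here. No difference below therefore has a replicate check, no p-value was computed, and hairpin, construct and library preparation cannot be told apart.

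Most endogenous retroviruses of the mouse genome are kept silent in ESCs by methylation of histone H3 at lysine 9. KRAB zinc finger proteins such as ZFP809 bind the retroviral DNA and bring TRIM28, a corepressor that in turn recruits the H3K9 methyltransferase SETDB1 with its partner ATF7IP. EHMT2 and EHMT1, also called G9a and GLP, form a heterodimer that places mono- and dimethylation on H3K9, KDM1A removes methyl groups from H3K4, MORC3 is a chromatin ATPase, and CHAF1A with CHAF1B forms the core of CAF-1, which deposits histones on newly made DNA. Loss of several of these factors is known to derepress MERVL and other 2-cell-stage transcripts in ESCs.

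The libraries held between 31533129 and 35742335 counted reads. *Ythdf2* had 2806 reads in shScram+EV, 662 in the knockdown, 7661 in shYthdf2+DF2WT and 6925 in shYthdf2+DF2Mut, so both constructs were present at over the control level and the 2 differed by a log2 ratio of -0.10. All 8 ESC markers were detected in each library, with a lowest count of 5967, for *Klf4*. Among markers of other cell types, the 6 primitive endoderm genes summed to 13.1, 16.5, 10.2 and 15.8 CPM (counts scaled to a common library size) in shScram+EV, the knockdown, shYthdf2+DF2WT and shYthdf2+DF2Mut, the 6 trophectoderm genes to 126, 91.4, 123 and 97.9, and the 6 fibroblast genes to 16.5, 11.6, 11.4 and 10.9. *Foxa2* was at 0 in shScram+EV, *Col3a1* in shScram+EV and shYthdf2+DF2WT and *Lum* in all 4 libraries. The endoderm sum was higher, and the trophectoderm sum lower, in the same libraries in which *Zfp809*, *Setdb1* and *Atf7ip* were higher, and the part of such cells in those values was not tested. All 10 genes of a 2-cell list were higher in the knockdown than in shScram+EV by a log2 ratio of at least 0.32, with a median of 1.84, and all 10 were lower in shYthdf2+DF2WT than in the knockdown, with a median of -1.56, although several of these genes are near-identical copies whose reads are assigned uncertainly. The libraries also stood apart in Y-linked reads. *Ddx3y* had 2 reads in shScram+EV, 261 in the knockdown, 26 in shYthdf2+DF2WT and 197 in shYthdf2+DF2Mut, *Uty* 0, 106, 24 and 111, and *Eif2s3y* 0, 225, 35 and 218. These genes were high in the knockdown and the mutant library and low in the scrambled and wild-type libraries, the same split of libraries as for *Zfp809*, *Setdb1* and *Atf7ip* below. The other 5 genes listed on chromosome Y with a mean count of at least 50 did not show that split. Whether the cells of the libraries differed in more than the hairpin and construct was not tested, and with 1 library per group these cannot be told apart. In bulk RNA a change in the number of cells of a type cannot be told apart from a change in RNA per cell.

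Levels were compared between genes in RPKM, which is the CPM divided by the summed exon length in kilobases. On this scale *Trim28* was by far the most abundant of the 10 in every library, at 433 RPKM in shScram+EV, 434 in the knockdown, 436 in shYthdf2+DF2WT and 458 in shYthdf2+DF2Mut. *Kdm1a* was next in all 4 libraries, between 56.1 and 67.6 RPKM. *Atf7ip* was lowest in all 4, between 6.22 and 9.40 RPKM, on a summed exon length of 17200 bases, which is longer than the 8059 bases of its longest annotated transcript. The CAF-1 genes, *Morc3* and *Setdb1* lay between 32.6 and 50.7 RPKM in all 4 libraries, and *Ehmt2*, *Ehmt1* and *Zfp809* between 13.0 and 27.8. Within these middle positions the order shifted. *Setdb1* was 6th in shScram+EV, 4th in the knockdown, 5th in shYthdf2+DF2WT and 3rd in shYthdf2+DF2Mut, and *Zfp809* was 9th, 8th, 9th and 7th. Counts of the members ran from 1129 to 50539 reads, so counting error was small for each of them. Intervals below are 95% Clopper-Pearson intervals on read pairs. They cover counting error only, and amplified reads are not independent molecules.

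**Figure D1:**
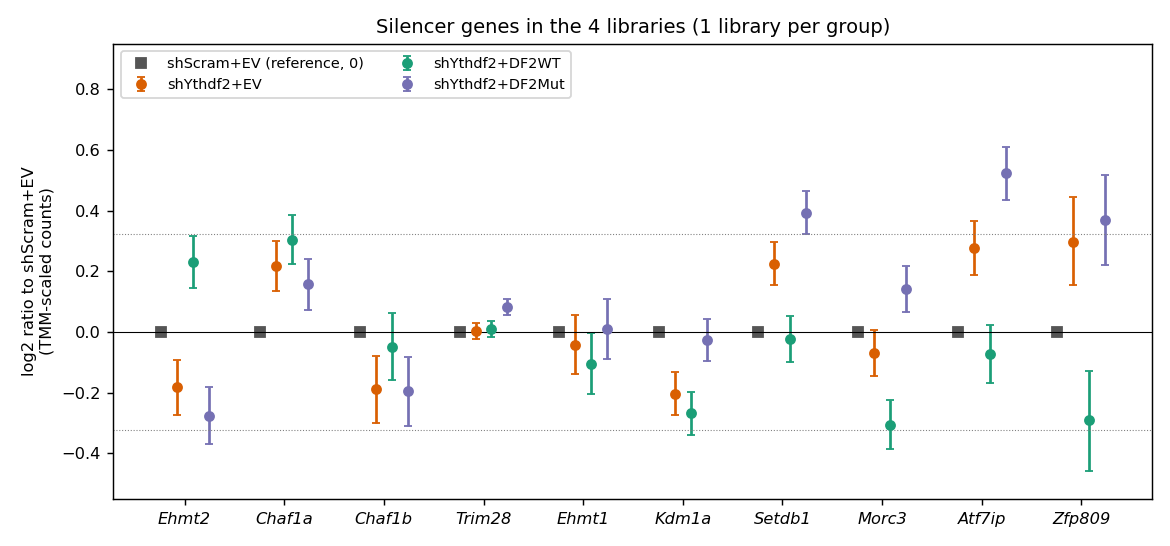
Log2 ratio of each gene to shScram+EV (y axis, TMM-scaled counts) for the 10 silencer genes (x axis), with 1 point per library, bars for the 95% counting interval and dotted lines at the call size of 0.32. *Setdb1*, *Atf7ip*, *Zfp809*, *Morc3* and *Kdm1a* have the knockdown and shYthdf2+DF2Mut above shYthdf2+DF2WT. *Ehmt2*, *Chaf1a* and *Chaf1b* have the reverse order, and the points of *Trim28* and *Ehmt1* lie close to 0.

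The first question was whether the silencers differed when *Ythdf2* was depleted while 2-cell genes were higher. With no replicates, a gene was called by size alone, where its log2 ratio was at least 0.32 in either direction, which is 25% higher or 20% lower. At this call size no member was lower in the knockdown than in shScram+EV, against 23.4% of the 18586 tested genes, and none was higher, against 24.1% of tested genes. At the 2-fold size used by the study the count was also 0 of 10, against 12.8% of tested genes. Among the 10817 genes whose mean count reached 200, which are closer to the members in depth, the shares were 16.2% upwards, 15.1% downwards and 2.54% at 2-fold. The median log2 ratio of the members was -0.02, beside 0.00 for all tested genes, with 5 members above 0 and 5 below. The range over the members was -0.20 to 0.30 on the log2 scale.

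ZFP809, the DNA-binding end of the pathway, recognises the primer binding site of murine leukaemia virus and related retroviruses. *Zfp809* (chr9:22136980-22165413, mm39) had 1326 reads in shScram+EV, 1855 in the knockdown, 1129 in shYthdf2+DF2WT and 1724 in shYthdf2+DF2Mut, or 42.0, 51.6, 34.3 and 54.2 CPM. The knockdown and the mutant library were high, and the scrambled and wild-type libraries low, as for the Y-linked genes above. The log2 ratio of knockdown to shScram+EV was 0.30 (95% interval 0.15 to 0.45), just under the call size of 0.32, and it passed that size (0.34) when libraries were scaled by total counts. With wild-type YTHDF2 the level was 66.5% of that in the knockdown, a log2 ratio of -0.59 (-0.75 to -0.44). With the mutant it differed from the knockdown by 0.07 (-0.07 to 0.21). The mutant library was at 158% of the wild-type library, a log2 ratio of 0.66 (0.51 to 0.82), the widest difference among the 10 genes. The wild-type library lay below shScram+EV too, by a log2 ratio of -0.29 (-0.46 to -0.13). An exon share of 8.06% overlaps *Zfp599*, and reads there were not counted.

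TRIM28, the scaffold to which KRAB zinc finger proteins attach, showed the flattest profile. *Trim28* (chr7:12758079-12764959, mm39) had 44347, 50539, 46532 and 47244 reads in shScram+EV, the knockdown, shYthdf2+DF2WT and shYthdf2+DF2Mut, which is 1403, 1406, 1414 and 1485 CPM. Before correction for GC content the 4 libraries spanned only 0.08 on the log2 scale. The log2 ratio of knockdown to shScram+EV was 0.00 (-0.02 to 0.03). After correction for GC content and length the mutant-to-wild-type log2 ratio of *Trim28*, a GC-rich gene, was 0.38 in place of 0.07. Its exons overlap those of *Gm31649* over 13.5% of their length.

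SETDB1 and ATF7IP, the enzyme that trimethylates H3K9 and the partner that keeps it in the nucleus and stable, had profiles alike in shape. *Setdb1* (chr3:95230836-95264513, mm39) had 5605 reads in shScram+EV, 7453 in the knockdown, 5744 in shYthdf2+DF2WT and 7410 in shYthdf2+DF2Mut, or 177, 207, 175 and 233 CPM. *Atf7ip* (chr6:136495787-136587848, mm39) had 3556, 4903, 3523 and 5144 reads in the same order, or 113, 136, 107 and 162 CPM. For both genes the wild-type library was at about the scrambled level and the mutant library was highest. The knockdown-to-shScram+EV log2 ratio was 0.23 (0.15 to 0.30) for *Setdb1*. For *Atf7ip* it was 0.28 (0.19 to 0.37). Both intervals lay above 0, and both values lay under the call size. With wild-type YTHDF2 the log2 ratio to the knockdown was -0.25 (-0.32 to -0.18) for *Setdb1*, and to shScram+EV it was -0.02 (-0.10 to 0.05). *Atf7ip* with wild-type YTHDF2 was lower than in the knockdown by over the call size, at -0.35 (-0.44 to -0.26), which became -0.26, under the call size, after correction for GC content and length. Against shScram+EV it was at -0.07 (-0.17 to 0.02). Both genes were higher with the mutant than with the wild type by more than the call size. The mutant-to-wild-type log2 ratio was 0.42 (0.35 to 0.49) for *Setdb1*. That of *Atf7ip* was 0.60 (0.51 to 0.68), or 151% of the wild-type library. The mutant library also lay above the knockdown, by 0.17 (0.10 to 0.23) for *Setdb1* and by 0.25 (0.17 to 0.33) for *Atf7ip*. After the correction these were 0.09 and 0.14.

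The start-site regions of *Setdb1*, *Atf7ip* and *Zfp809*, the genes with this common pattern, and of *Ehmt2*, which had the opposite one, are printed to let their sequence be compared. They run from 250 bases before to 50 bases after a RefSeq start site on GRCm38.p6, a build other than that of the counts, 5′ to 3′ on the strand of the gene. All 10 genes matched in that set, with 12 start sites. Capitals mark motifs searched on both strands and chosen after the sequences were read: the CCAAT box (CCAAT), the GC box (GGGCGG), an ETS core (CCGGAA), a YY1 core (GCCATNTT) and an E2F site (TTCCCGCC). No marked motif overlapped another in these 4 regions.
*Setdb1*, chr3:95357153-95357452, minus strand: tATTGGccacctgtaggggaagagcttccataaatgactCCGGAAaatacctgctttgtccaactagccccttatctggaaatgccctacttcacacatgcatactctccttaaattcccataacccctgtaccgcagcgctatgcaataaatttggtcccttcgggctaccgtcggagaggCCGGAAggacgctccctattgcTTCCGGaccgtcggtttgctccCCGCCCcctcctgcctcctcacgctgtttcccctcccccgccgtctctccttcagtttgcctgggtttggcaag
*Atf7ip*, chr6:136518601-136518900, plus strand: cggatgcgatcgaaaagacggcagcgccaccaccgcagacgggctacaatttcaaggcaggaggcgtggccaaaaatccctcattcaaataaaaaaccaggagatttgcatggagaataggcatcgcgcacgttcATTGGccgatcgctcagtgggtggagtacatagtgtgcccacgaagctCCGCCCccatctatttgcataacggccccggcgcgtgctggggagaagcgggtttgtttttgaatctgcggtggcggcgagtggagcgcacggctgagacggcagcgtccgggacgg
*Zfp809*, chr9:22225453-22225752, plus strand: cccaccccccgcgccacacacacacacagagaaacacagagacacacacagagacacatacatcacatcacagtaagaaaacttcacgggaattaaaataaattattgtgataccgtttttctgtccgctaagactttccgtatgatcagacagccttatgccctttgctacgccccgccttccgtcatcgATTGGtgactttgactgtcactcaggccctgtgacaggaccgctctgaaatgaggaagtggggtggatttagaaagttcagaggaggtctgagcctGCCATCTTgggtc
*Ehmt2*, chr17:34898224-34898523, plus strand: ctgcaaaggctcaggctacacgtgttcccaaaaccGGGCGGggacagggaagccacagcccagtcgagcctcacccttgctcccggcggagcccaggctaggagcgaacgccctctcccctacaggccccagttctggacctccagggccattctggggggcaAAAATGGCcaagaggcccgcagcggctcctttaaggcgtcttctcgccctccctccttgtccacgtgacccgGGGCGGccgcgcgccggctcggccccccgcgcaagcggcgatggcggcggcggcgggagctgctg

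The *Setdb1* region held 3 ETS cores, 1 GC box and 1 CCAAT box, and that of *Atf7ip* 1 GC box and 1 CCAAT box. The *Zfp809* region held 1 CCAAT box and 1 YY1 core, and the *Ehmt2* region 2 GC boxes and 1 YY1 core. The CCAAT box was thus in the regions of the 3 genes with the common pattern and not in this one of *Ehmt2*, but it occurs in 37.4% of all 32851 start-site regions, and it was found in 6 of the 10 members. A GC box was found in 8 members (35.7% of all regions), an ETS core in 3 (14.9%), a YY1 core in 2 (6.05%) and an E2F site in 2, *Trim28* and *Chaf1a* (2.19%). The GC content of the printed regions was 55.3% for *Setdb1*, 58.7% for *Atf7ip*, 49.3% for *Zfp809* and 70.3% for *Ehmt2*, beside a median of 52.7% over all regions. With 15, 29, 11 and 28 CpG dinucleotides, all 4 were above the median of 7. A motif match is a description of letters and not of binding.

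EHMT2 and EHMT1 act as a pair, yet their transcripts behaved differently. *Ehmt2* (chr17:35117426-35133049, mm39) had 4022 reads in shScram+EV, 4033 in the knockdown, 4920 in shYthdf2+DF2WT and 3344 in shYthdf2+DF2Mut, or 127, 112, 149 and 105 CPM. As counted, the wild-type library stood above the other 3, and the mutant library was lowest. The log2 ratio of wild type to shScram+EV was 0.23 (0.15 to 0.32), and 0.01 after correction for GC content and length. *Ehmt2* was the one member that was higher with wild-type YTHDF2 than in the knockdown by the call size, at 133% or a log2 ratio of 0.41 (0.33 to 0.50), and the one that was lower with the mutant than with the wild type by that much, at 70.3% or -0.51 (-0.60 to -0.42). *Ehmt2* has the highest GC content of the members, and after correction for GC content and length the values were 0.22 and -0.24, both under the call size. Against shScram+EV the knockdown was at -0.18 (-0.27 to -0.09). *Ehmt1* (chr2:24680781-24809658, mm39) had 3346, 3699, 3244 and 3391 reads, or 106, 103, 98.6 and 107 CPM in the same order. Its log2 ratios in the 4 comparisons ran from -0.06 to 0.11, and the intervals of all but the mutant-to-wild-type comparison, 0.11 (0.02 to 0.21), included 0. The per-kilobase ratio of *Ehmt1* to *Ehmt2* within a library, which needs no scaling between libraries, was 0.787 (0.737 to 0.840) in shScram+EV and 0.868 (0.815 to 0.925) in the knockdown. It was 0.624 (0.586 to 0.665) with wild-type YTHDF2 and 0.959 (0.897 to 1.03) with the mutant, so the interval of the wild-type library did not reach that of any other. The log2 change of this ratio was -0.48 for wild type against knockdown and 0.62 for mutant against wild type, and -0.33 and 0.35 after the correction.

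KDM1A, a demethylase that works with the CoREST complex, gave a further pattern. *Kdm1a* (chr4:136277844-136330127, mm39) had 6790 reads in shScram+EV, 6711 in the knockdown, 5876 in shYthdf2+DF2WT and 6717 in shYthdf2+DF2Mut, or 215, 187, 179 and 211 CPM. The scrambled and mutant libraries were high and the knockdown and wild-type libraries low. The log2 ratio was -0.20 (-0.27 to -0.13) for knockdown against shScram+EV, -0.07 (-0.14 to 0.01) for wild type against knockdown, and 0.24 (0.17 to 0.31) for mutant against wild type, all under the call size. Reads over the 18.2% of its exon bases that overlap *Luzp1* were not counted.

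MORC3 silences retroviral elements together with the H3K9 machinery. *Morc3* (chr16:93629009-93672964, mm39) had 5445, 5903, 4590 and 6046 reads in shScram+EV, the knockdown, shYthdf2+DF2WT and shYthdf2+DF2Mut, or 172, 164, 139 and 190 CPM. The wild-type library was below the other 3. The knockdown did not differ from shScram+EV beyond counting error, at a log2 ratio of -0.07 (-0.15 to 0.01). The wild type was at -0.24 (-0.32 to -0.16) against the knockdown, and the mutant, at 136% of the wild type, at 0.45 (0.37 to 0.53). *Morc3* has the lowest GC content of the members. After correction for GC content and length the wild-type value against the knockdown was -0.10. The mutant value against the wild type was 0.22, under the call size.

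The CAF-1 subunits went different ways in the knockdown. *Chaf1a* (chr17:56347416-56375026, mm39), the large subunit, had 4288 reads in shScram+EV, 5671 in the knockdown, 5518 in shYthdf2+DF2WT and 4812 in shYthdf2+DF2Mut, or 136, 158, 168 and 151 CPM. The scrambled library was the lowest of the 4. *Chaf1b* (chr16:93680788-93703003, mm39), the mid-sized subunit, whose gene starts 7823 bases beyond the end of *Morc3*, had 2672, 2668, 2692 and 2349 reads, or 84.6, 74.2, 81.8 and 73.9 CPM. Here the scrambled library was the highest. The knockdown-to-shScram+EV log2 ratio was 0.22 (0.14 to 0.30) for *Chaf1a*. For *Chaf1b* it was -0.19 (-0.30 to -0.08). The ratio of *Chaf1a* to *Chaf1b* per kilobase was 0.985 (0.919 to 1.06) in shScram+EV and 1.30 (1.22 to 1.39) in the knockdown. It was 1.26 in both construct libraries (1.18 to 1.34 with the wild type, 1.17 to 1.35 with the mutant). All 3 libraries with the *Ythdf2* hairpin thus differed from the scrambled library in this ratio, with intervals that did not touch, and did not differ among themselves beyond counting error. The mutant-to-wild-type log2 ratios were -0.15 for each of these genes, under the call size. *Chaf1a* shares 18.7% of its exon bases with *Ubxn6*, and reads there were left out.

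The ratios of the recruiting proteins to the methyltransferase were compared within libraries in the same way. There were 11.4 (10.9 to 11.8) *Trim28* reads per kilobase for each of *Setdb1* in shScram+EV, 9.75 (9.42 to 10.1) in the knockdown, 11.6 (11.2 to 12.1) with wild-type YTHDF2 and 9.16 (8.85 to 9.49) with the mutant. As counted, the ratio was lower in the knockdown and the mutant library than in the other pair, beyond counting error. Both genes differ in GC content, and for the construct libraries this did not hold after correction for GC content and length. The log2 change of the ratio went from -0.35 to 0.05 for mutant against wild type and from 0.26 to 0.02 for wild type against knockdown, while for knockdown against shScram+EV it was -0.22 and then -0.25. *Trim28* to *Zfp809* was 27.1 in shScram+EV, 22.1 in the knockdown, 33.4 with wild type and 22.2 with the mutant. Its log2 change for mutant against wild type went from -0.59 to -0.17 with the correction, and for wild type against knockdown from 0.60 to 0.32. The ratio of *Setdb1* to *Atf7ip* moved less, between 5.32 (5.06 to 5.59) with the mutant and 6.02 (5.67 to 6.39) with the wild type.

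**Figure D2:**
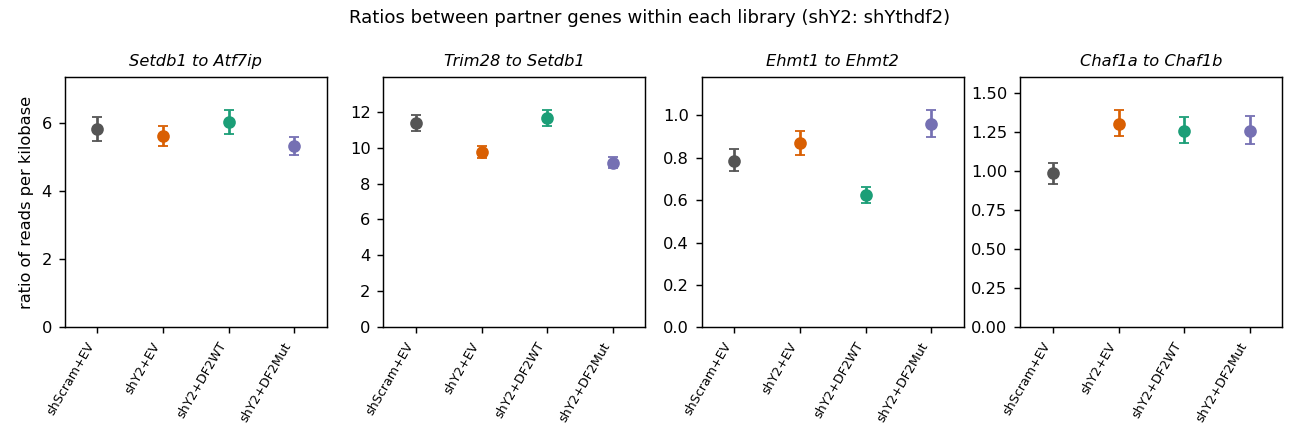
Ratio of partner genes in reads per kilobase (y axes) in each of the 4 libraries (x axes), with points for the ratio and bars for its 95% counting interval. *Trim28* to *Setdb1* is lower in the knockdown (9.75) and the mutant library (9.16) than in the others as counted, a difference between the constructs that turned from -0.35 to 0.05 on the log2 scale after correction for GC content and length, and *Chaf1a* to *Chaf1b* is lowest in shScram+EV (0.985).

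Across the members, the second question was whether added YTHDF2 altered them, and whether this required m6A binding. Wild-type YTHDF2 against the knockdown gave 1 member higher by the call size, *Ehmt2*, against 22.3% of tested genes, and 2 lower, *Atf7ip* and *Zfp809*, against 21.0%. The mutant against the knockdown gave none higher and none lower by that size, against 13.5% and 17.4% of tested genes. The comparison of mutant with wild type gave 4 higher, *Setdb1*, *Atf7ip*, *Morc3* and *Zfp809*, against 23.6%, and 1 lower, *Ehmt2*, against 27.0%. The 4 of 10 that were higher with the mutant are a larger share than over all tested genes, and the other counts are at or below those shares. Against the deeper genes given below, the 2 of 10 lower with wild type are also a larger share (12.7%). With 10 members these shares rest on few genes, and the differences were not tested. None reached 2-fold in these 3 comparisons, against 10.7%, 6.03% and 11.6% of tested genes. The median log2 ratio of the members was -0.06 for wild type against knockdown, 0.08 for mutant against knockdown and 0.18 for mutant against wild type, beside 0.00, 0.01 and -0.01 over all tested genes. Among the genes whose mean count reached 200, 13.4% were higher and 12.7% lower for wild type against knockdown, 3.48% and 7.89% for mutant against knockdown, and 17.5% and 19.5% for mutant against wild type. In that set only 1.72%, 0.129% and 1.95% reached 2-fold.

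The comparison of knockdown with shScram+EV and that of mutant with wild type share no library. *Setdb1*, *Atf7ip* and *Zfp809* were above 0 in both, *Ehmt2* and *Chaf1b* below 0 in both, and *Kdm1a* and *Chaf1a* had opposite signs, all with intervals that excluded 0. *Trim28*, *Ehmt1* and *Morc3* had no clear sign in the knockdown, where their intervals included 0. No member was higher by the call size in both, against 11.1% of tested genes. The wild-type and mutant comparisons with the knockdown share that library, so their values are given side by side only.

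**Figure D3:**
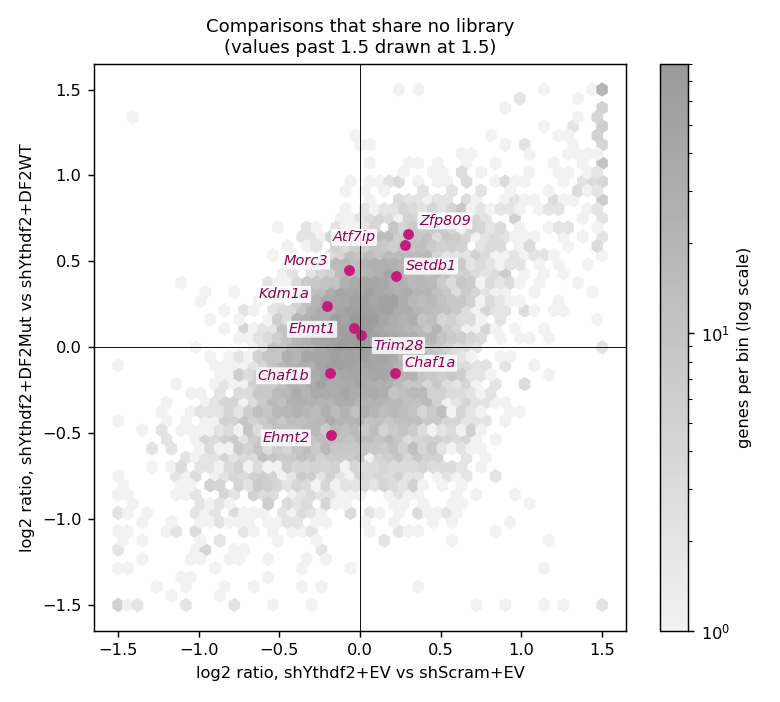
Log2 ratio of shYthdf2+DF2Mut to shYthdf2+DF2WT (y axis) against that of shYthdf2+EV to shScram+EV (x axis), with tested genes as grey hexagons shaded by number on a log scale, values past 1.5 drawn at 1.5, and the 10 silencers as points. *Zfp809* (0.30 and 0.66), *Atf7ip* (0.28 and 0.60) and *Setdb1* (0.23 and 0.42) lie in the upper right, and *Ehmt2* (-0.18 and -0.51) in the lower left.

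The GC content of the transcript moved with these values. Over the 16726 tested genes with a known transcript (90.0%), Spearman's rho between GC content and the log2 ratio was -0.39 for mutant against wild type, 0.34 for wild type against knockdown, -0.16 for mutant against knockdown and -0.06 for knockdown against shScram+EV. Over the 10 members, which share the libraries and differ in depth, it was -0.86, 0.78, -0.61 and -0.39, and Pearson's r was -0.77, 0.77, -0.59 and -0.39. *Morc3* (43.5% GC), *Zfp809* (45.2%), *Atf7ip* (47.7%) and *Setdb1* (48.3%), the members that were higher with the mutant by the call size, were the 4 with the lowest GC content. *Ehmt2*, at 60.8%, had the highest. After a smooth trend of the log2 ratio on GC content and length was removed, the mutant-to-wild-type log2 ratio was 0.55 for *Zfp809*, 0.41 for *Atf7ip* and 0.33 for *Setdb1*, all still past the call size. That of *Ehmt2* was -0.24, no longer past it, and *Trim28* at 0.38 and *Kdm1a* at 0.32 came to pass it. For wild type against knockdown, *Zfp809* at -0.52 remained past the size, while *Atf7ip* at -0.26 and *Ehmt2* at 0.22 did not, and *Chaf1a* went from 0.09 to -0.02. Whether GC content acted in the cells or in the preparation of the libraries was not tested.

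**Figure D4:**
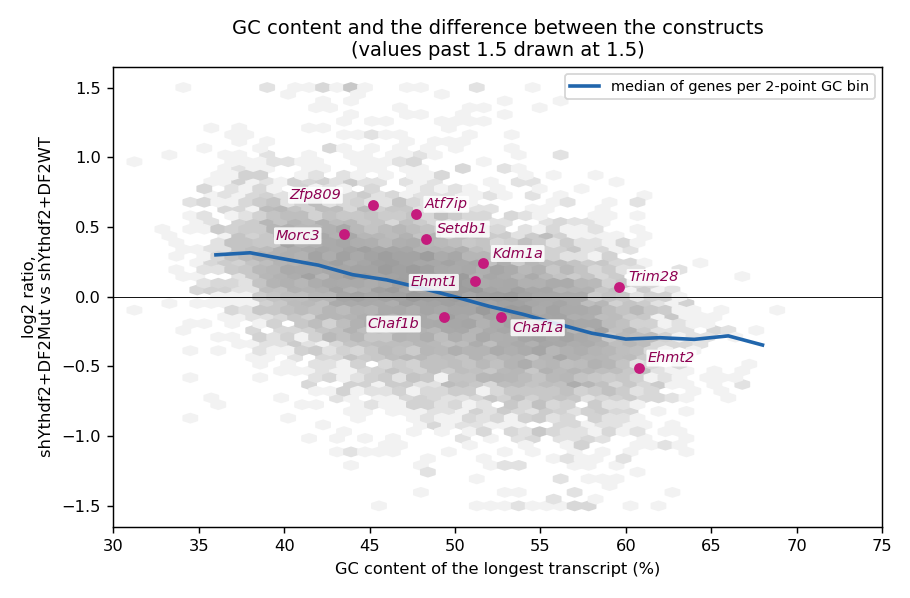
Log2 ratio of shYthdf2+DF2Mut to shYthdf2+DF2WT (y axis, values past 1.5 drawn at 1.5) against the GC content of the longest transcript in percent (x axis), with grey hexagons for tested genes, darker where more genes fall, a line for the median per 2-point bin, and the 10 silencers as points. The members fall with GC content as the median does, *Zfp809* (45.2% GC) being highest, and *Trim28* (59.6% GC) lies above the line.

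The density of GGACT, the most used m6A sequence context, was also counted in the longest transcript of each gene. It was 2.12 per kilobase in *Chaf1b*, 1.59 in *Setdb1*, 1.51 in *Ehmt1*, 1.49 in *Ehmt2*, 1.11 in *Zfp809* and 0.993 in *Atf7ip*, beside a median of 1.02 over all genes with a transcript. It was lower in *Kdm1a* (0.661), *Chaf1a* (0.650), *Trim28* (0.616) and *Morc3* (0.239). Over the 10 members Spearman's rho between this density and the log2 ratio was -0.04 for knockdown against shScram+EV, 0.13 for wild type against knockdown, -0.38 for mutant against knockdown and -0.14 for mutant against wild type, and the genes that were higher with the mutant spanned the range from *Morc3*, with 1 such site, to *Setdb1*, with 9.

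Other genes of the same pathways were described from lists named for their function. Their counts past the call size are to be read against the shares of all tested genes given above, 24.1% higher and 23.4% lower in the knockdown and 23.6% and 27.0% for mutant against wild type. The latter were 20.4% and 20.6% after correction for GC content and length, which was applied to the lists after their values had been seen. Of 7 tested KRAB zinc finger genes beside *Zfp809*, 2 were higher in the knockdown by the call size and 1 lower, with a median log2 ratio of 0.23. After the correction 1 was higher and 1 lower. With wild-type YTHDF2 all 7 were below the knockdown, 4 of them by the call size, with a median of -0.36. With the mutant all 7 were above the wild type, 5 by the call size, with a median of 0.44. After the correction 6 of the 7 were above the wild type, 3 by the call size, and the median was 0.10. The wild-type median against the knockdown became -0.21, with 2 past the call size. *Zfp819* had 196 reads in shScram+EV, 341 in the knockdown, 223 with wild type and 320 with mutant. *Zfp932* had 866, 1310, 810 and 1058, and *Zfp445*, which takes part in imprinting control, 4648, 6344, 4523 and 5370. In each of these 3 genes the knockdown and the mutant library were the higher pair, as for *Zfp809*. After the correction the mutant-to-wild-type log2 ratio was 0.59 for *Zfp819*, -0.01 for *Zfp932* and 0.01 for *Zfp445*. KRAB zinc finger genes have close paralogues, so reads in their shared parts were not counted.

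Among 13 other retroelement silencers, 2 were higher and none lower in the knockdown by the call size (median 0.04), 4 lower with wild type than in the knockdown (median -0.19), and 5 higher and none lower with mutant than with wild type (median 0.30). After the correction 2 were higher with mutant than with wild type, of which 1, *Resf1*, was among the 5, and the median was 0.18. In the knockdown 1 was then higher, *Zfp42*. With wild type 3 were then lower than in the knockdown, with a median of -0.11. *Smarcad1*, a chromatin remodeller, had 6132, 8800, 5331 and 8171 reads in shScram+EV, the knockdown, shYthdf2+DF2WT and shYthdf2+DF2Mut. Its log2 ratio was 0.34 for knockdown against shScram+EV, -0.60 for wild type against knockdown and 0.67 for mutant against wild type. After the correction these were 0.30, under the call size, -0.38, and 0.32, just under it. *Resf1*, a partner of SETDB1, had 5404, 7627, 4594 and 7631 reads, with log2 ratios of 0.31, -0.60 and 0.78, which became 0.28, -0.40 and 0.46. *Zfp42*, also a naive pluripotency marker, had 13918, 23750, 16602 and 19220, and was 0.59 higher on the log2 scale in the knockdown.

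The other H3K9 methyltransferases and their partners, 9 genes, had a median of 0.15 in the knockdown, with 2 higher and 1 lower by the call size, and of 0.44 for mutant against wild type, with 5 higher and 1 lower. The latter median was 0.13 after the correction, with 3 higher and 1 lower. Of these 3, *Setdb2* (8 reads with wild type and 13 with mutant) and *Mecom* (10 and 15) had intervals that included 0. That of *Cdyl*, 0.31 to 0.58 as counted, did not. *Suv39h2*, which trimethylates pericentromeric H3K9, had 461, 679, 468 and 533 reads in shScram+EV, the knockdown, shYthdf2+DF2WT and shYthdf2+DF2Mut, so the knockdown was the highest. *Cdyl*, which binds EHMT2, had 1537, 1996, 1570 and 2063, with the knockdown and the mutant library high. *Prdm16* ran the other way, at 308, 212, 292 and 163 reads. The 6 readers of H3K9 methylation included none past the call size in any of the 4 comparisons, and their medians lay between -0.09 and 0.06. After the correction 1 was lower with mutant than with wild type, and the median of that comparison went from 0.06 to -0.13. *Cbx1*, a heterochromatin protein, had 8251, 10429, 9347 and 7859 reads, *Mphosph8* of the HUSH complex 5234, 5304, 4390 and 4986, and *Cdyl2* 8171, 7805, 7957 and 6661.

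Of 10 H3K9 demethylases, none was higher and 1 lower in the knockdown by the call size (median -0.10). This was *Kdm3b*, with 9419, 8569, 8826 and 8336 reads in shScram+EV, the knockdown, shYthdf2+DF2WT and shYthdf2+DF2Mut. Its log2 ratio was -0.32, and -0.26 after the correction, under the call size. *Kdm7a*, at -0.37, was then the 1 gene that was lower. *Kdm7a* had 1467, 1351, 1176 and 1383, and *Kdm4a* 3391, 3404, 3565 and 2978. For mutant against wild type 3 demethylases were higher and 1 lower, with a median of 0.09. After the correction none of them was higher and 1 was lower, with a median of 0.01. The lower gene was *Kdm4d* both times, with 4 reads in the wild-type library and 2 in the mutant library. Its interval, -6.83 to 3.31, included 0. Of 7 HUSH and MORC genes, 2 were lower in the knockdown and none higher (median -0.05), and with mutant against wild type 3 were higher and none lower (median 0.23). In the 6 whose GC content was known, the last comparison had 2 higher and none lower before the correction and 1 of each after it, with a median of 0.06. The higher gene after it was *Morc2b*, with 6 reads in the wild-type library and 18 in the mutant library. Its interval as counted, -0.37 to 4.16, included 0. The 2 lower in the knockdown were *Morc1*, which silences retroelements in germ cells, with 4582, 4003, 3778 and 3951 reads, and *Morc4*, with 440, 399, 383 and 479, so all 3 libraries with the *Ythdf2* hairpin were below the scrambled one for *Morc1* but not for *Morc4*. After the correction *Morc1* was at -0.38 in the knockdown, and *Morc4*, at -0.30, was under the call size.

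Histone chaperones, 14 genes, had a median of 0.02 in the knockdown, with 2 higher and none lower by the call size. For mutant against wild type 3 were higher and none lower, and after the correction none was higher and 1 lower. In the knockdown 1 was higher after the correction, *Daxx*, while *Asf1a*, at 0.30, was under the call size. *Asf1a*, which hands histones to CAF-1, had 321, 488, 282 and 410 reads in shScram+EV, the knockdown, shYthdf2+DF2WT and shYthdf2+DF2Mut, with the knockdown and mutant libraries high. *Daxx*, the chaperone of histone H3.3, had 2699, 4083, 3098 and 3127, with the knockdown alone high. *H3f3b*, a gene for H3.3 itself, had 27061, 37571, 31733 and 25632. Of 12 partners of KDM1A, 2 were higher and 1 lower in the knockdown, with a median of 0.08. For mutant against wild type 2 were higher and 1 lower, and after the correction 1 was higher, not one of those 2, and none lower. *Rcor1*, the CoREST scaffold that joins KDM1A to chromatin, was the lower one, at 3082, 2130, 2810 and 2407 reads, a log2 ratio of -0.72 in the knockdown and of 0.53 with wild type against knockdown. *Gse1* had 3574, 5965, 4723 and 5152 reads, and *Phf21a*, which reads unmethylated H3K4, had 2028, 2922, 2396 and 2857.

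**Figure D5:**
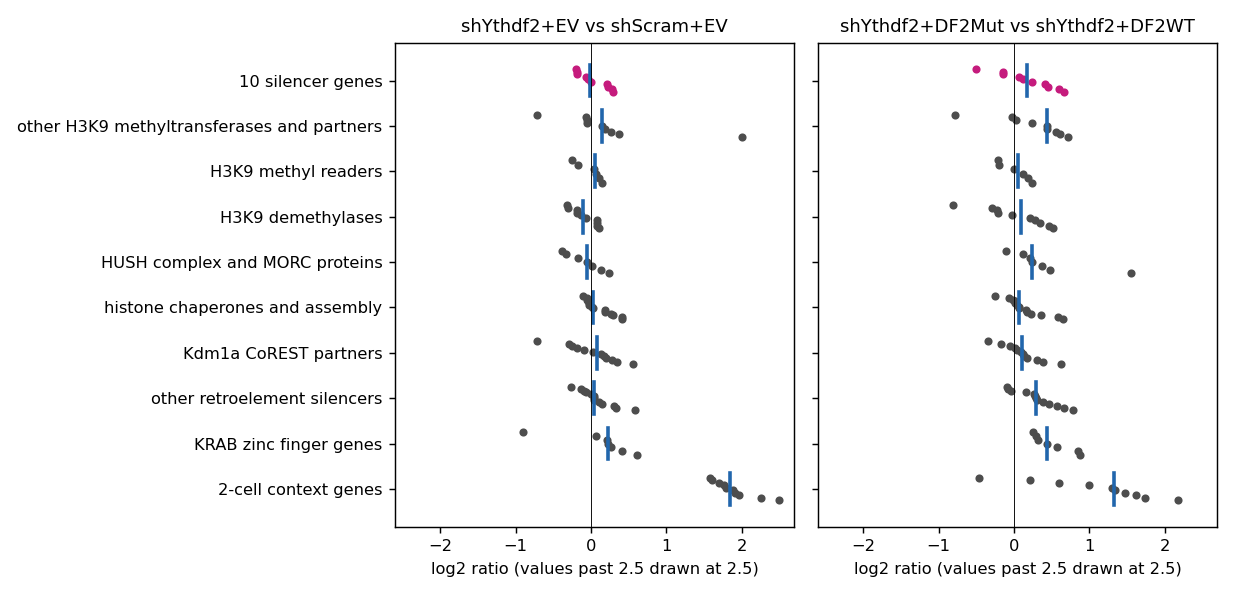
Log2 ratio of each tested gene (x axis, values past 2.5 drawn at 2.5) by gene list (y axis), for knockdown against shScram+EV and for mutant against wild type, with a point per gene and a bar at the list median, all without correction for GC content. The 10 silencers centre near 0 in the knockdown (median -0.02) and at 0.18 for mutant against wild type, while the 2-cell genes centre at 1.84 and 1.32.

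The genes whose profiles over the 4 libraries were most like those of the 2 most variable members were sought among the same 10817 genes, by the Euclidean distance between log2 CPM profiles centred on their own means. For *Zfp809* these were *Chst12* (distance 0.02 on the log2 scale, with 248, 341, 207 and 319 reads in shScram+EV, the knockdown, shYthdf2+DF2WT and shYthdf2+DF2Mut), *Smarcad1* (0.03) and *Rfx7* (0.03, with 3716, 5226, 3222 and 4975). For *Atf7ip* they were *Ptprk* (0.02, with 2542, 3454, 2498 and 3612), *Zfp874a* (0.03, with 326, 461, 330 and 480) and *Tenm3* (0.04, with 2294, 3205, 2271 and 3247). With 4 libraries and this many genes, profiles as close as these are a description only.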

How the data were processed

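RNA-seq was described for 4 libraries of mouse ESCs, 1 per group, each placed by its title. The authors deposited 1 table of read counts for each gene. Per the file headers, they were made with featureCounts 2.0.3 on an mm39 RefSeq annotation, at exons, unstranded, with both mates counted and with reads at several places or genes left out. The submitters' processing notes name fastp 0.19.4, HISAT2 2.2.1 and DESeq2 1.40.2, and name mm10 where the header names mm39. Total counts were 32382858, 35742335, 32584252 and 31533129 in shScram+EV, the knockdown, shYthdf2+DF2WT and shYthdf2+DF2Mut, and mitochondrial genes took 8.44%, 6.76%, 6.34% and 6.14% of them. A count of 3 was at most 0.0949 CPM.

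Counts were scaled with TMM factors (edgeR 4.0.16, R 4.3.3; 0.976, 1.01, 1.01 and 1.01) over the 18586 genes whose mean count reached 10, and log2 ratios were taken with a prior count of 0.5. The computation was checked on data with known fold changes. A gene was called higher or lower where its log2 ratio was at least 0.32 in size. Intervals came from scipy 1.17.1 on reads divided by 2. GC content came from the longest GENCODE vM21 transcript (mm10), and was removed with length by lowess (statsmodels 0.14.6, fraction 0.3). Start-site sequences were those of RefSeq for GRCm38.p6. Proteins were not analysed here. Alternatives were scaling by total counts, by upper quartiles, by the size factors of DESeq2 1.42.0 or by TMM without mitochondrial genes, a prior count of 5, and the GC and length correction. All members were named, with up to 3 genes of each other list that had a mean count of 200 or more and the largest absolute knockdown ratio. Members and lists were chosen with earlier results of these data known.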

Additional observations from a re-analysis of the deposited data

How the results depend on the processing

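Scaling by DESeq2 size factors or by TMM without mitochondrial genes, and a prior count of 5, left all 40 log2 ratios of members within their counting interval. Under total counts 1 of the 40 moved beyond it, and under upper-quartile scaling 1, both for *Trim28* (0.05 for knockdown against shScram+EV and 0.04 for mutant against wild type). Total counts also gave 1 member higher in the knockdown by the call size in place of 0. The correction for GC content and length moved 16 of the 40 values and reversed 1, *Chaf1a* for wild type against knockdown, at -0.02. Under it, 0 members were higher and 1 lower for wild type against knockdown (1 and 2 without it), 0 were lower for mutant against wild type (1 without it), and the median of that comparison was 0.27 in place of 0.18. After the data were seen, the same correction was applied to the other lists and the partner ratios, and part of the values it moved stand beside them above. Medians for knockdown against shScram+EV moved too. They went from 0.15 to 0.07 for the other methyltransferases and partners, from 0.04 to -0.03 for the other silencers and from -0.10 to -0.05 for the demethylases. Why these values moved was not tested. No paired analysis was possible because each group has 1 library and the labels carry no replicate numbers, and for the same reason no library could be left out. Differences between single libraries may be those of culture, preparation or sequencing, which these counts cannot tell apart. Depth limits the values of genes with few reads, among them the *Mage-a* genes, *Setdb2*, *Mecom*, *Kdm4d* and *Morc2b*.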

Other observations

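*Mage-a* genes, germline genes that H3K9 methylation keeps silent, were at low counts, and 4 of 8 passed the filter. Their median log2 ratio was -0.35 for knockdown against shScram+EV, 0.64 for wild type against knockdown and -0.87 for mutant against wild type, where 3 were lower by the call size and none higher. In the knockdown 2 of the 4 were above 0 and 2 below, between -1.22 and 0.65. *Magea8* had 23, 27, 43 and 24 reads in shScram+EV, the knockdown, shYthdf2+DF2WT and shYthdf2+DF2Mut, with a log2 ratio of -0.78 (-1.97 to 0.25) for mutant against wild type. The wild-type library was the highest. *Atf7ip2*, the paralogue of *Atf7ip*, had 1078, 1183, 814 and 1159 reads, with log2 ratios of -0.05 (-0.22 to 0.12) for knockdown against shScram+EV and 0.56 (0.38 to 0.75) for mutant against wild type, the latter becoming 0.22, under the call size, after correction for GC content and length. *Setdb2* had 19, 26, 8 and 13 reads, too few to set its libraries apart.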
